A study of Mus musculus with 4 samples.

Results

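Border-associated macrophages are the resident macrophages of the brain's edges: the meninges, the choroid plexus and the sleeves of tissue around cortical vessels. In the cortex of CrT-KO mice and their controls, 57 of 35694 nuclei (0.16%) were selected as such cells on their own UMI counts, that is, counts of distinct RNA molecules. A nucleus was taken when it held at least 2 UMIs of Mrc1, at least 1 UMI over F13a1, Cd163, Pf4 and Dab2, and none of Slc17a7, Gad1 or Gad2, which mark excitatory and inhibitory neurons. The levels of these 8 genes were therefore set by the selection and are described without a test. Each library was made from the cerebral cortex of the right hemisphere of 1 untreated male mouse on a C57Bl/6J background, at postnatal day 100. The 2 control animals were CrT+/y littermates, and the 2 CrT-KO animals were CrT-/y, hemizygous for a deletion of exons 5 to 7 of the X-linked creatine transporter gene Slc6a8 in every cell. The 4 libraries were biological replicates, with 15000 nuclei sorted by flow cytometry for each. Meninges, choroid plexus and cortical vessels were not dissected apart, so the border that a nucleus came from cannot be told.

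Macrophages of this kind arise from early yolk sac progenitors and, like microglia, depend on the receptor Csf1r. They differ from microglia in carrying endocytic receptors such as the mannose receptor (Mrc1), the haemoglobin scavenger receptor (Cd163) and stabilin 1 (Stab1), and in lacking microglial identity genes such as Sall1 and Tmem119. They sample the fluid along vessels and membranes, clear debris, lipoprotein and iron, and some of them present antigen on MHC class II.

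The promoters of the 2 genes that contributed most of the selecting counts are shown because these genes chose the nuclei. Each window is 300 bases of RefSeq sequence (GRCm38.p6), 250 before and 50 after the annotated start, written 5′ to 3′ on the gene's own strand. Capitals mark GAGGAA or its reverse complement TTCCTC, the core bound by the macrophage factor PU.1 and by other ETS factors. At least 1 such match was present in 7652 of 27025 promoters of that length (28.3%), so a match describes the letters and not a bound site. F13a1 has 2 listed promoters and the first is printed.
Mrc1, chr2:14229164-14229463, plus strand: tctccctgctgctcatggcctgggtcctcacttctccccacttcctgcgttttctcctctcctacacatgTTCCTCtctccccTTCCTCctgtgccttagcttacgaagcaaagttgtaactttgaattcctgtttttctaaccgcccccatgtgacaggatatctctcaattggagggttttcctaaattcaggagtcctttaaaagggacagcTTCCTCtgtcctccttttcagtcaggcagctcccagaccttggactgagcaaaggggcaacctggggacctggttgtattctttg
F13a1, chr13:37050195-37050494, minus strand: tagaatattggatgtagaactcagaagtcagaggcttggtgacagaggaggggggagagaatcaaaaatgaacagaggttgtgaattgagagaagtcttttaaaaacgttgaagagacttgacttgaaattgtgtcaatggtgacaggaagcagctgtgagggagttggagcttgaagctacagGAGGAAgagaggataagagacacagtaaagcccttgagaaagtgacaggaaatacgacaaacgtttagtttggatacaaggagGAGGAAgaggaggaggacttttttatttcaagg
The Mrc1 window holds 3 matches and the F13a1 window 2.

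The nuclei were few and shallow. Control replicates 1 and 2 held 16 and 19 of them, and CrT-KO replicates 1 and 2 held 13 and 9. Their UMIs summed to 17902, 22662, 23926 and 8562 in that order, 73052 in all. The median nucleus had 1016 UMIs (664 to 8932) and 763 detected genes (526 to 3051), against 6031 UMIs over all nuclei and 1095 over the microglia described below. Whole libraries held 8282 to 9295 nuclei and 51507483 to 65240843 UMIs. Below, a level is UMIs of a gene per 10000 UMIs summed over the nuclei of one kind in a library, and 4 values in a row are always control replicates 1 and 2 and then CrT-KO replicates 1 and 2.

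4 of the 57 nuclei had more than 2000 UMIs, and each stood apart in content. The heaviest, in CrT-KO replicate 1, had 8932 UMIs, 37.3% of its library's macrophage sum, was marked as a doublet and held 93 UMIs of neuron markers beside 13 of Mrc1. A second doublet, in control replicate 1, had 2761 UMIs with 22 of oligodendrocyte markers. One nucleus of control replicate 2, with 2428 UMIs, met the rule through Dab2 and held 18 of the 117 microglia marker UMIs of the whole group. One of CrT-KO replicate 1, with 2459 UMIs, held 6 of the 7 fibroblast marker UMIs and 7 of the 13 astrocyte marker UMIs. Doublets made up 3.51% of the macrophage nuclei and 3.4% of all nuclei. No 2 selected nuclei of different libraries shared a barcode, although 96 barcodes occurred in more than 1 library and 1 selected nucleus had a barcode found elsewhere.

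Mrc1 and F13a1 carried the selection, Cd163 and Dab2 added to it, and the chemokine gene Pf4 hardly took part. Mrc1 gave 105, 156, 89 and 50 UMIs, which are levels of 58.7, 68.8, 37.2 and 58.4. F13a1, the A subunit of coagulation factor XIII, gave 90, 135, 109 and 62 UMIs (levels 50.3, 59.6, 45.6 and 72.4). With all nuclei CrT-KO replicate 1 had the lowest level of both genes. Without its heaviest nucleus, a marked doublet, its Mrc1 level was 50.7, still the lowest, and F13a1 gave 99 of its 14994 UMIs, a level above both control levels. With all nuclei the genotypes overlapped for F13a1, and for Mrc1 the lower control level exceeded the higher CrT-KO level by 58.7 to 58.4. Each nucleus held a median of 6 Mrc1 UMIs (2 to 22) and 6 F13a1 UMIs (0 to 18). Dab2, a clathrin adaptor used in endocytosis, was detected in 47 nuclei, with 33, 53, 50 and 30 UMIs. Cd163 was detected in 36 nuclei, with 15, 32, 19 and 7 UMIs, and Pf4 in 1 nucleus of CrT-KO replicate 2. Pf4 had only 10 UMIs in the whole series, so its near absence says little. F13a1, Cd163 and Dab2 were found together in 32 nuclei, while 6 nuclei met the panel through F13a1 alone and 2 through Dab2 alone. The 57 nuclei held 51.4% of all Mrc1 UMIs in the series, 47.7% of F13a1, 28.9% of Cd163 and 17.7% of Dab2.

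**Figure D1:**
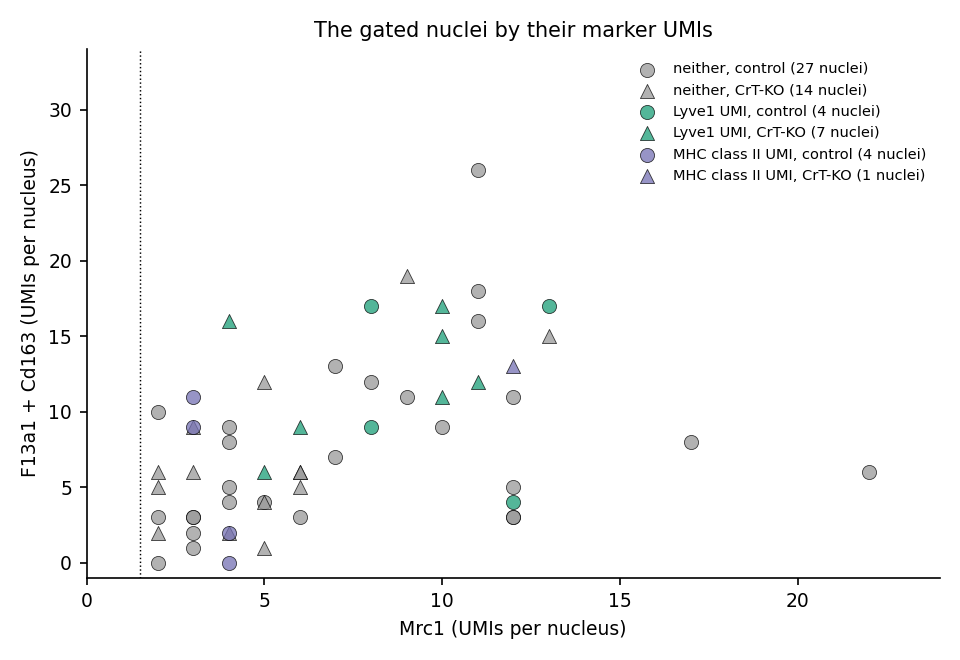
Each of the 57 macrophage nuclei by its Mrc1 UMIs (x axis) and its summed F13a1 and Cd163 UMIs (y axis), circles for control and triangles for CrT-KO, coloured by detection of Lyve1 (11 nuclei), MHC class II genes (5) or neither (41). The dotted line marks the lower limit of Mrc1, and Mrc1 reaches 22 UMIs among control nuclei and 13 among CrT-KO nuclei.

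At the edges of the rule, 6 nuclei had exactly 2 UMIs of Mrc1 (with 3 to 11 of the panel) and 2 had a panel count of 1. Just outside, 6 nuclei had 1 UMI of Mrc1 and at least 1 of the panel, 1 of them with 18393 UMIs, and 14 had at least 2 of Mrc1 but none of the panel. Another 14 met both macrophage conditions and were left out for a neuronal UMI. Those 14 had a median of 6417 UMIs and included 4 doublets.

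The markers went with the label for most nuclei, with some microglial content. All 15 macrophage markers that the rule did not use were detected, 389 UMIs in all, at summed levels of 54.7, 56.9, 45.1 and 63.1 against 5.95 to 7.9 in a stricter set of microglia. The 12 microglia markers summed to levels of 16.8, 26.0, 7.11 and 12.8 against 77.6 to 88.4 in those microglia. Csf1r, Cx3cr1 and P2ry12, whose UMIs chose those microglia, are among the 12. The other 9 markers summed to 5.03, 8.83, 2.09 and 3.5 in the macrophages against 45.3 to 50.5. Sall1, Tmem119 and Olfml3, which define microglia, were at 0 in all 4 libraries. Csf1r was found in 27 nuclei, P2ry12 in 16 and Cx3cr1 in 10, and 39 nuclei had at least 1 of them.

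Other cell types left few counts. The 7 mural markers were all at 0, and the endothelial list had 4 UMIs with 5 of its 8 genes at 0. The monocyte list had 5 UMIs, the dendritic cell list 6, the neutrophil list 4, the T and NK cell list 7 and the ependymal list 2. Oligodendrocyte, OPC and astrocyte markers gave 32, 17 and 13 UMIs, 22 of the first in the doublet of control replicate 1. The 53 UMIs of the B cell list were all of Bank1, a signalling scaffold that also had 649 UMIs in the stricter microglia, while the other 5 B cell genes were at 0. Neuron markers were present in every macrophage nucleus, 457 UMIs in all, at summed levels of 54.2, 55.6, 75.2 and 63.1. The same markers stood at 69.3 per 10000 in the stricter microglia and 62.1 in oligodendrocytes. Of the 457 UMIs, 93 were in the heaviest nucleus, and the source of the neuronal UMIs was not tested.

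The nuclei were not uniform in Lyve1 and the MHC class II genes, which are used to divide border macrophages. Lyve1, a hyaluronan receptor of perivascular and meningeal macrophages, had 1 UMI in each of 11 nuclei (2, 2, 5 and 2 per library). The MHC class II genes H2-Aa, H2-Ab1, H2-Eb1 and Cd74 had 29 UMIs, confined to 5 nuclei (2, 2, 1 and 0 per library) with 2 to 13 UMIs each. No nucleus had both, and 41 had neither. At 11 and 5 of 57 nuclei, few with both would be expected even if the 2 were unrelated, so this does not show a division. Of the 11 nuclei with Lyve1, 9 also had Cd163 and 10 had Stab1. Of the 5 with MHC class II, 1 had Cd163 and 2 had Stab1, although all carried 3 to 12 UMIs of Mrc1. Over all 57 nuclei, 36 had Cd163 and 42 had Stab1. Among the 5 was the marked doublet of control replicate 1 with 22 oligodendrocyte marker UMIs. It held 5 MHC class II UMIs and met the panel through Dab2 alone. With 1 Lyve1 UMI in any positive nucleus, its absence elsewhere was not separable from depth at about 1000 UMIs a nucleus. Siglec1, a sialic acid receptor of tissue macrophages, had 6 UMIs in 5 nuclei, all of them control. Control libraries held 16 and 19 of the 57 nuclei, and so few UMIs cannot compare the genotypes.

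The share of macrophage nuclei was lower in both CrT-KO libraries than in both control libraries, a difference that this design could not call. They made up 0.1932% (exact 95% binomial interval 0.1105 to 0.3135) and 0.2044% (0.1231 to 0.319) of all nuclei in control replicates 1 and 2. In CrT-KO replicates 1 and 2 they made up 0.1402% (0.07469 to 0.2397) and 0.1017% (0.04653 to 0.193). The groups did not overlap, but each CrT-KO interval overlapped each control interval, and the intervals cover counting error only. The mean difference was −0.0778 percentage points (2-sided exact permutation test over libraries, p = 0.333, the smallest that 2 against 2 allows). Nuclei were sorted before loading, and the sort and capture can set such shares.

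Set against microglia of the same library, the macrophages made up 16 of 384 and 19 of 450 nuclei of the pair in controls, and 13 of 427 and 9 of 419 in CrT-KO. These are 4.167% (exact 95% interval 2.4 to 6.678), 4.222% (2.561 to 6.515), 3.044% (1.631 to 5.15) and 2.148% (0.9868 to 4.038). The mean difference was −1.60 points (exact permutation p = 0.333), again with no overlap between groups and again at the limit of the design. The median depth of the macrophage nuclei, on which the count depends, was 1017, 1044, 1098 and 842 UMIs, with a mean difference of −60.5 (exact permutation p = 1). CrT-KO replicate 2 thus had both the fewest macrophage nuclei and the shallowest.

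**Figure D2:**
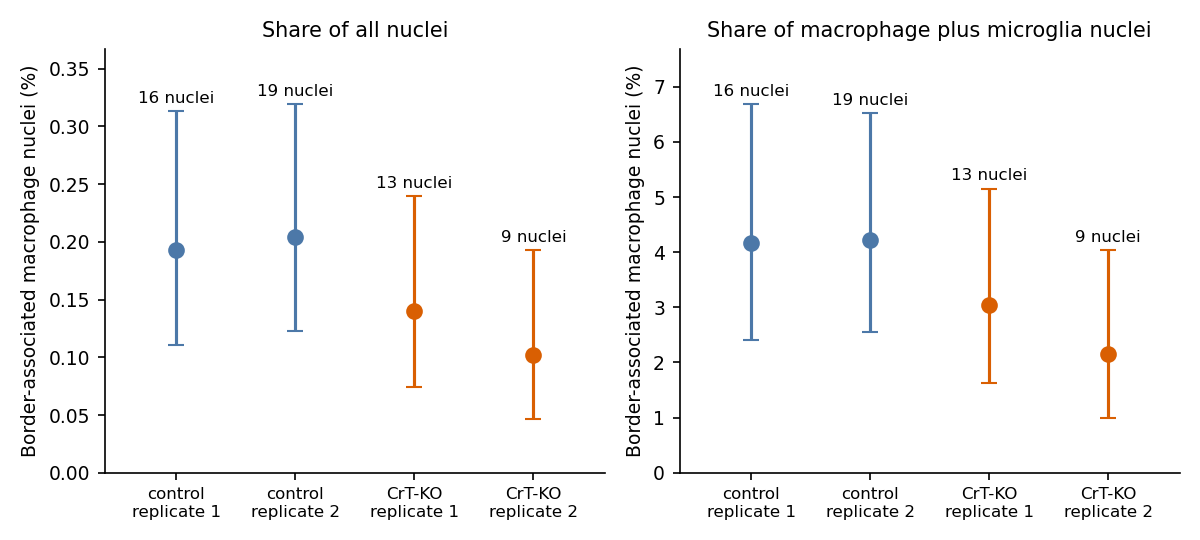
Share of macrophage nuclei in each library, as a percentage of all nuclei and of macrophage plus microglia nuclei, with exact 95% binomial intervals as bars. Both CrT-KO points lie below both control points in each panel, and the bars overlap.

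The deleted gene could be checked in the tissue but not in the macrophages. Over all nuclei, Slc6a8 had 381 UMIs in control replicate 1, 357 in control replicate 2, 106 in CrT-KO replicate 1 and 84 in CrT-KO replicate 2, which are levels of 0.072, 0.0612, 0.0162 and 0.0163. Reads were counted over the whole gene, deleted exons and the rest alike, and the files do not place them within it. Within macrophage nuclei there were 0 Slc6a8 UMIs in all 4 libraries, which allows levels of up to 1.68, 1.32, 1.25 and 3.5 (3 UMIs of each sum). These limits lie well above the level in the tissue, so neither expression nor its loss was detectable. Of the 7 genes of creatine synthesis, transport and use, 5 were at 0, Gatm had 4 UMIs and Ckb 5.

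Which genes set these macrophages apart was asked against microglia of the same libraries, the most similar cells. Microglia were 1623 nuclei with at least 2 UMIs over Csf1r, Cx3cr1 and P2ry12 and none of Mrc1, F13a1, Cd163, Pf4 or the neuronal genes. Counts summed per library and kind were compared by edgeR's quasi-likelihood test with library as a block and Benjamini-Hochberg adjustment, with a call at an adjusted p under 0.1. Of 5559 genes tested, 223 were higher in macrophages (4.01%) and 702 lower (12.6%). The median log2 fold change of all tested genes was −0.36. Without TMM scaling factors the split was 462 higher and 348 lower. Without control replicate 1 the calls numbered 519, and without control replicate 2 they numbered 490.

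The sums of these microglia held more neuronal RNA than those of the macrophages, and its part in the 702 lower genes was not tested directly. Neuron markers stood at 193 per 10000 in these microglia against 62.6 in the macrophages, and 236 microglial nuclei of over 3000 UMIs held 58.4% of their UMIs. A stricter gate therefore required at least 1 UMI of the microglial genes per 1000 UMIs of the nucleus, which kept 1374 nuclei with neuron markers at 69.3. Against it, and without the heaviest macrophage nucleus, 194 of 3503 genes were higher (5.54%) and 259 lower (7.39%), with a median of −0.16 over all of them. Both comparisons use the same macrophage sums, apart from that nucleus, and the stricter microglia are part of the broader ones, so they are not independent. Of the 702 lower genes, 194 were not tested and 368 were tested but not called against the stricter gate. Both the gate and the omission were chosen after the data were seen. Fold changes below are against the stricter microglia unless stated, and each is a log2 value with its standard error. These log2 values leave out the heaviest macrophage nucleus. The UMIs, levels, detection percentages, pooled ratios and floor bounds printed beside them keep it. A bound for a gene at 0 in macrophages would be smaller without that nucleus.

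The gene with the largest difference on the higher side was the same against both sets of microglia. Ms4a4a, a tetraspan protein of macrophages (chr19:11375523-11392790 on the plus strand), gave 18, 13, 13 and 3 UMIs in macrophages and 0 in microglia of any library. It was at least 318-fold higher, taking 3 UMIs as the floor over all stricter microglia. Its neighbour Ms4a7 gave 7, 5, 4 and 1 UMIs against 1 (7.43 ± 0.70 (SE), adjusted p = 3.31e-20). Ms4a6c gave 6, 17, 3 and 4 UMIs, a difference of 4.47 ± 0.50 (SE), adjusted p = 2.58e-17. All 3 were detected in every macrophage library.

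Aoah, which deacylates bacterial lipopolysaccharide (chr13:20794113-21036617 on the plus strand), reached levels of 17.3, 13.2, 4.18 and 16.4 against 0.0288 to 0.0479 in the stricter microglia. The lowest macrophage library, CrT-KO replicate 1, was still far above the highest microglial one, and the difference was 7.89 ± 0.49 (SE), adjusted p = 2.79e-54. Egfr, the epidermal growth factor receptor (chr11:16752203-16918158 on the plus strand), had levels of 7.26, 15, 8.36 and 11.7 against 0 to 0.119 (7.25 ± 0.49 (SE), adjusted p = 1.42e-46). Colec12, a scavenger receptor of the collectin family, had levels of 6.7, 12.8, 11.3 and 19.9 against 0 to 0.239 (6.19 ± 0.40 (SE), adjusted p = 7.77e-51). Colec12 was found in 56.1% of macrophage nuclei and 0.509% of stricter microglia, but also in 35.7% of vascular nuclei, so it does not belong to macrophages alone in this tissue.

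Rbpj, the DNA-binding effector of Notch signalling (chr5:53466152-53657362 on the plus strand), was the most widely detected of these genes. Its levels were 52.5, 45.9, 27.6 and 74.7 in macrophages and 1.14 to 1.48 in stricter microglia. Every macrophage library exceeded every microglial one. The ratio of pooled counts was 35.6-fold (95% counting interval 29.7 to 42.8), with a fitted difference of 5.16 ± 0.25 (SE), adjusted p = 1.23e-89. Rbpj had a UMI in 94.7% of macrophage nuclei against 11.6% of stricter microglia, 12.8% of oligodendrocytes and 9.52% of vascular nuclei. With each nucleus thinned to 500 UMIs the first pair was 71.9% and 6.11%.

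Apoe, the main apolipoprotein of the brain (chr7:19696109-19699188 on the minus strand), followed the same pattern. Its levels were 25.1, 22.9, 19.6 and 18.7 against 0.288 to 0.693, 43.3-fold (95% counting interval 32.7 to 57.8) over pooled counts (5.45 ± 0.28 (SE), adjusted p = 1.07e-78). It had a UMI in 82.5% of macrophage nuclei, 5.24% of stricter microglia and 20.2% of vascular nuclei, or 68.4%, 3.28% and 11.9% at 500 UMIs.

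**Figure D3:**
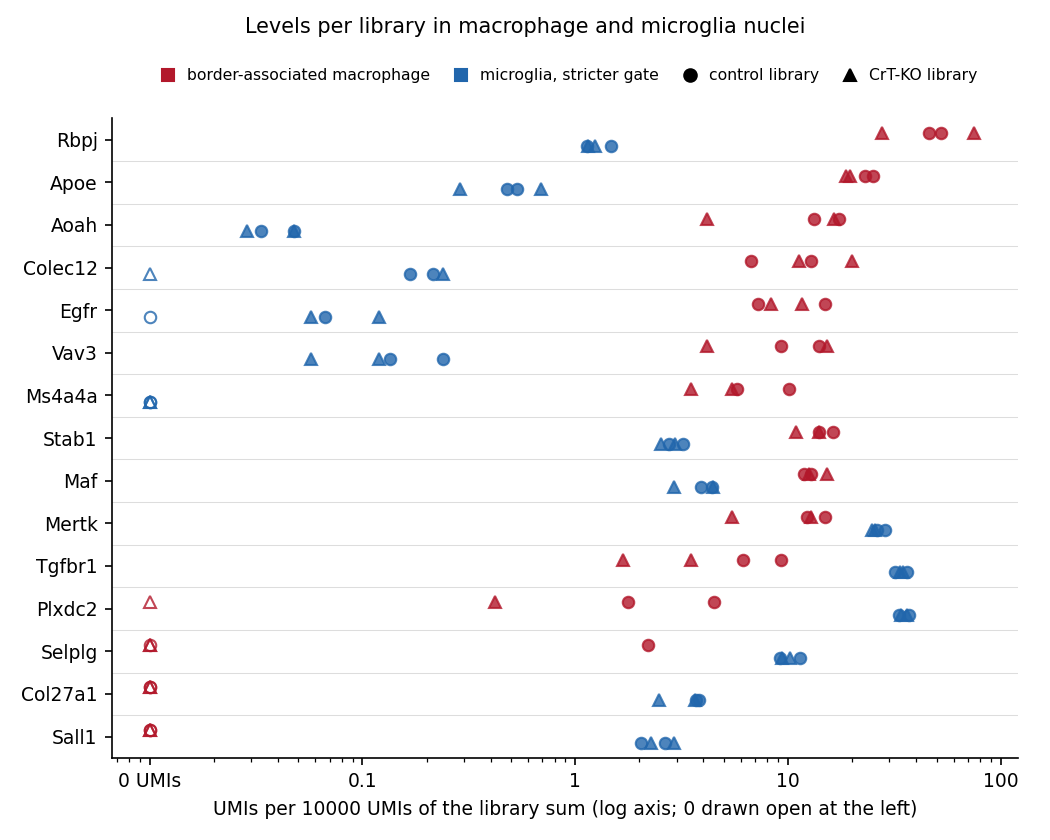
Levels of genes per 10000 UMIs (log axis) in macrophage and stricter microglia sums, one point per library, circles for control and triangles for CrT-KO, with sums at 0 UMIs drawn open at the left. Rbpj, Apoe, Aoah, Egfr and Colec12 are separated without overlap, with every macrophage library above every microglial one.

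The interferon-inducible genes Ifi203, Mndal and Ifi207, which sit together on chromosome 1 and encode proteins of one family, were also higher. Ifi203 gave 5, 11, 3 and 5 UMIs against 0 in stricter microglia, at least 162-fold, and Ifi207 gave 4, 10, 6 and 3 (6.65 ± 0.60 (SE), adjusted p = 1.72e-25). Mndal gave 3, 11, 3 and 2, but its annotated span overlaps Ifi203 on the same strand, so reads of the 2 genes could have been assigned to either. Nlrc4, an inflammasome adaptor, gave 5, 8, 5 and 1 UMIs (5.37 ± 0.63 (SE), adjusted p = 6.38e-14). Cybb (the catalytic subunit of the phagocyte oxidase), Vcam1 (an adhesion ligand) and Cd38 (an NAD hydrolase) were among the 12 largest differences from the broader microglia, at 7.22, 6.98 and 6.22, and had too few counts to be tested against the stricter set. Vav3, a guanine nucleotide exchange factor (6.05 ± 0.44), Sh3pxd2b, a podosome scaffold (6.23 ± 0.60), and Mdfic, a transcriptional modulator (5.65 ± 0.56), were, with Itga4, among the 12 largest in the stricter comparison. Of the 12 largest differences from the broader microglia, 9 were tested against the stricter set and all 9 were called.

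The lower side held microglial identity genes. Sall1, the transcription factor that maintains microglial identity (chr8:89027235-89044162 on the minus strand), had 0 UMIs in macrophages and 367 in stricter microglia, at levels of 2.04 to 2.91. With 3 UMIs over all macrophage nuclei as the floor, the heaviest included, microglia were at least 6.03-fold higher. The same bound was 8.24-fold for Col27a1, a fibrillar collagen, 6.09-fold for Golm1, a Golgi membrane protein, and 5.48-fold for Mlph, which links vesicles to myosin. It was 3.97-fold for Lpcat3, a phospholipid acyltransferase, 3.69-fold for the ETS factor Ets1, and 3.2-fold for the protease inhibitor Serpine2. Cxxc5, Kif21b, Trpm2 and Arhgef40 were also at 0 in macrophages, with bounds of 3.33-, 2.97-, 2.92- and 2.79-fold. All of these were called in both comparisons. Against the broader microglia the 12 most negative genes also included Thsd7b, Kcnh1, Ptprs, Rgs20, Zfyve28, Sdk2 and Cit, all at 0 in macrophages. Of these 7, only Ptprs was tested and called against the stricter set, where microglia were at least 2.51-fold higher.

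**Figure D4:**
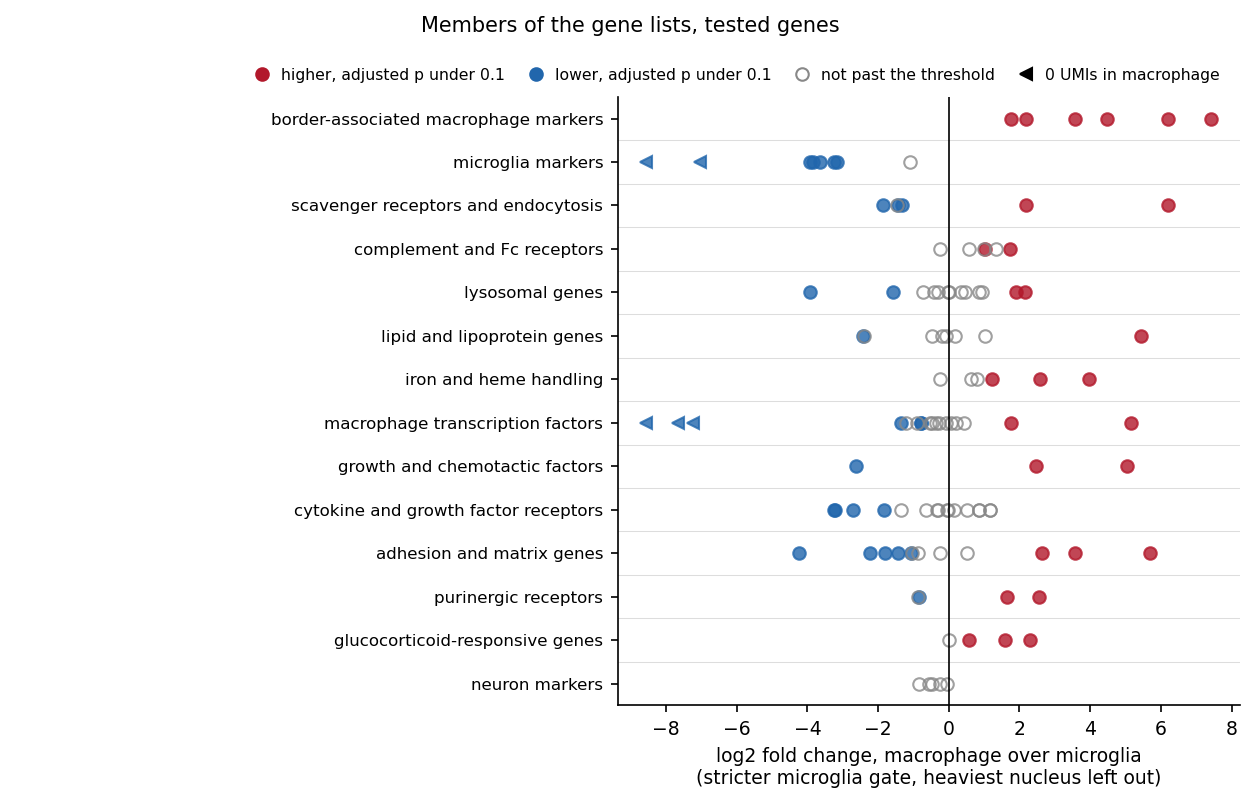
Log2 fold change of macrophages over stricter microglia for each tested member of the gene lists, filled where the adjusted p was under 0.1. Macrophage markers lie to the right of 0 and microglia markers to the left, and triangles mark genes with 0 macrophage UMIs, whose fitted value is not a bound.

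Among the border macrophage markers that the rule did not use, 6 of 15 passed the filter on low counts and were called higher in both comparisons. A marker could pass through the population in which it is high, so the counts and medians of tested list members, here and below, are descriptions and support nothing by themselves. The median log2 difference of the 6 was 4.74 against microglia and 4.03 against the stricter set. Stab1 had levels of 14, 16.3, 10.9 and 14 against 2.53 to 3.21 (2.19 ± 0.26 (SE), adjusted p = 8.63e-15), and the transcription factor Maf 12.8, 11.9, 12.5 and 15.2 against 2.91 to 4.43 (1.76 ± 0.26 (SE), adjusted p = 3.46e-10). Tgfbi, a matrix protein induced by TGF-β, gave 3, 4, 4 and 1 UMIs (3.58 ± 0.62 (SE), adjusted p = 2.76e-07). The other 9 markers had 1 to 11 UMIs each and were not tested.

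Of the microglia markers, 6 of 7 tested were lower than in the broader microglia and 7 of 8 than in the stricter set, there with a median of −3.74, or −3.21 with Sall1 and Tmem119 set at their bounds. Siglech was at −3.16 ± 0.40, Gpr34 at −3.26 ± 0.74, Selplg at −3.84 ± 0.47 and Sparc at −3.64 ± 0.97. All Selplg and Gpr34 UMIs of the macrophages came from 1 nucleus each, both in control replicate 2. Fcrls, an Fc receptor-like protein often used to mark microglia, was the member not called, at −1.10 ± 0.46 (SE), adjusted p = 0.12. Csf1r, which chose the microglia, had levels of 7.26, 7.06, 4.18 and 3.5 in macrophages and 10.2 to 11.7 in stricter microglia.

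Endocytic receptors were divided. Of 6 tested scavenger and endocytosis genes, Stab1 and Colec12 were higher and Lrp1, Mertk and Itgav lower against the stricter set (median −1.37). Mertk, which binds apoptotic cells, had levels of 12.3, 15, 5.43 and 12.8 against 24.9 to 28.5 (−1.32 ± 0.26 (SE), adjusted p = 9.43e-06), and the lipoprotein receptor Lrp1 was at −1.86 ± 0.60 (SE), adjusted p = 0.023. Mertk was not called against the broader microglia, at −0.59. In iron and heme handling, 3 of 6 tested genes were higher and none lower in the stricter comparison (median 1.01). Cp, the ferroxidase ceruloplasmin, had levels of 6.7, 6.18, 2.93 and 11.7 against 0.259 to 0.502 (3.97 ± 0.43 (SE), adjusted p = 8.91e-18), while Blvra, a biliverdin reductase, was at 2.58 ± 0.62 (SE), adjusted p = 0.00073 and transferrin (Trf) at 1.22 ± 0.46 (SE), adjusted p = 0.0708. Cp was found in 47.4% of macrophage nuclei and in 48.8% of vascular nuclei.

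Of 6 tested complement and Fc receptor genes, 5 were higher against the broader microglia and 2 against the stricter set (median 1.01). C1qa, a chain of complement C1q, gave 7, 12, 5 and 1 UMIs (1.74 ± 0.47 (SE), adjusted p = 0.00364). C1qb and C1qc were at 0.58 and 1.00 and were not called there. Of 13 tested lysosomal genes, the cathepsins Ctsc (2.15 ± 0.36) and Ctsb (1.91 ± 0.38) were higher and Lgmn, the protease legumain (−1.58 ± 0.34), was lower. The median of the 13 was 0.01. Of 8 lipid genes (median −0.15), Apoe was higher and the acyltransferase Lpcat2 lower (−2.42 ± 0.41), while the cholesterol exporter Abca1 was at −0.09, not called. For MHC class II presentation only the protease cathepsin S (Ctss) could be tested, and it was lower (−1.23 ± 0.36 (SE), adjusted p = 0.00847).

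Shared myeloid regulators were not called, and a few factors were far apart. Of 18 tested transcription factors, Rbpj and Maf were higher in the stricter comparison, and Sall1, Sall3, Zfhx3, Mef2a and Mef2c were among those lower (median −0.50). Spi1, which encodes PU.1, was at −0.28 ± 0.46 (SE), adjusted p = 0.846, and Runx1 at −0.49 ± 0.26 (SE), adjusted p = 0.294. Mef2a and Mef2c differed by −0.78 ± 0.25 and −0.78 ± 0.26, and Zfhx3 by −1.35 ± 0.25. Irf8, another microglial regulator, had 0 UMIs in all 35694 nuclei and could not be judged.

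Of 3 growth factors tested against the stricter set, 2 were higher and 1 lower (median 2.48). Igf1, insulin-like growth factor 1, had levels of 3.91, 2.65, 0.836 and 5.84 against 0.0334 to 0.144 (5.04 ± 0.56 (SE), adjusted p = 3.60e-17), and Gas6, a ligand of Mertk, was at 2.48 ± 0.64 (SE), adjusted p = 0.00215. Tgfb1 was lower (−2.64 ± 0.83 (SE), adjusted p = 0.0171), as was its receptor Tgfbr1, with levels of 6.14, 9.27, 1.67 and 3.5 against 31.7 to 36.2 (−2.71 ± 0.29 (SE), adjusted p = 5.58e-18). Of 16 tested receptors none was higher in the stricter comparison and 4 were lower (median −0.17), among them the cytokine receptor Csf3r (−3.23 ± 0.54). Tlr4, the lipopolysaccharide receptor, was called higher only against the broader microglia (1.81, and 1.16 against the stricter). Chemokine genes had 0 to 2 UMIs each.

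Of 12 tested adhesion and matrix genes, 3 were higher and 5 lower (median −0.96). The integrin chain Itga4 (5.69 ± 0.67), Tgfbi and the neuropilin Nrp1 (2.64 ± 0.30) were higher, and Plxdc2 (−4.24 ± 0.36) and Itgb5 (−2.22 ± 0.35) were the most negative. Of 4 purinergic genes (median 0.40), the ATP-gated channels P2rx7 and P2rx4 were higher, P2rx7 with levels of 21.2, 19.4, 8.36 and 18.7 against 2.54 to 3.08 (2.54 ± 0.25 (SE), adjusted p = 2.26e-21) and P2rx4 at 1.64 ± 0.47 (SE), adjusted p = 0.00762, while the ectonucleotidase Entpd1 was lower (−0.84 ± 0.27 (SE), adjusted p = 0.0245). Of 4 tested glucocorticoid-responsive genes (median 1.09), Zbtb16 (2.29 ± 0.37 (SE), adjusted p = 1.52e-08), Tsc22d3 (1.60 ± 0.45 (SE), adjusted p = 0.00609) and the chaperone Fkbp5 (0.58 ± 0.23 (SE), adjusted p = 0.0871) were higher. Zbtb16 was not called against the broader microglia (0.88), where Sgk1 was lower (−3.29, 1 UMI). Each of these shares can be set beside the 5.54% and 7.39% of all genes.

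Genes of general metabolism gave little. None of 6 tested endoplasmic reticulum chaperones and neither of 2 creatine genes was called against microglia, and 1 of 6 glycolytic genes, Pfkp, was lower there (−3.49, 1 UMI) without being testable against the stricter set. The 12 immediate-early genes, which report recent stimulation, gave 12 UMIs in all. The 6 neuron markers were all lower against the broader microglia, and none of 5 tested was called against the stricter set. Bank1 was called higher against the former (1.46) and not the latter (0.68). Of the astrocyte list, Slc1a3 was lower in both comparisons. The OPC gene Lhfpl3 was lower against the broader microglia only, and 3 tested oligodendrocyte genes were called in neither.

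Whether loss of the transporter changed these macrophages was tested between the 2 control and 2 CrT-KO sums. No gene was called among 383 tested (0%) by edgeR's quasi-likelihood test, with 33 at an unadjusted p under 0.05, and DESeq2 also called 0, with 10 at an unadjusted p under 0.05. No list had a called member. Without CrT-KO replicate 1 the count was 3, all lower in CrT-KO, and without CrT-KO replicate 2 it was 60, 52 of them higher. In each of these fits a lone sample was assumed to vary like the other group.

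The 5 genes with the smallest p in each direction are given as values and not as changes, each at an adjusted p of 0.477. Wwox, an oxidoreductase with WW domains, gave 8, 9, 27 and 15 UMIs (levels 4.47, 3.97, 11.3 and 17.5). Both CrT-KO levels exceeded both control levels, and the log2 difference was 1.76 ± 0.47 (SE). Rora was at 2.87 ± 0.71, Tenm2 at 1.56 ± 0.46, Kalrn at 2.00 ± 0.61 and Mdga2 at 1.84 ± 0.60. These 4 are genes with strong expression in neurons, and the heaviest nucleus alone held 23 of 59 Rora UMIs, 34 of 100 of Tenm2, 16 of 33 of Kalrn and 25 of 62 of Mdga2. Without that nucleus the levels of CrT-KO replicate 1 were 15.3, 13.3, 2.67 and 9.34, each still above both control levels.

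On the other side, Hpgds, the haematopoietic prostaglandin D synthase, gave 16, 24, 7 and 0 UMIs (levels 8.94, 10.6, 2.93 and 0), a log2 difference of −2.11 ± 0.70 (SE). Iqgap2, a cytoskeletal scaffold, gave 12, 15, 3 and 1 UMIs (−2.26 ± 0.71). Dock10, another guanine nucleotide exchange factor, gave 22, 29, 11 and 2 (−1.58 ± 0.51). For all 3 both CrT-KO levels lay below both control levels, a separation that the choice by smallest p favours. Tgfbr1 gave 11, 21, 4 and 3 UMIs (−1.69 ± 0.59) and the stress kinase Map3k5 15, 15, 6 and 1 (−1.67 ± 0.59), again without overlap. CrT-KO replicate 2 rests on 8562 UMIs, where 1 UMI is a level of about 1.17.

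**Figure D5:**
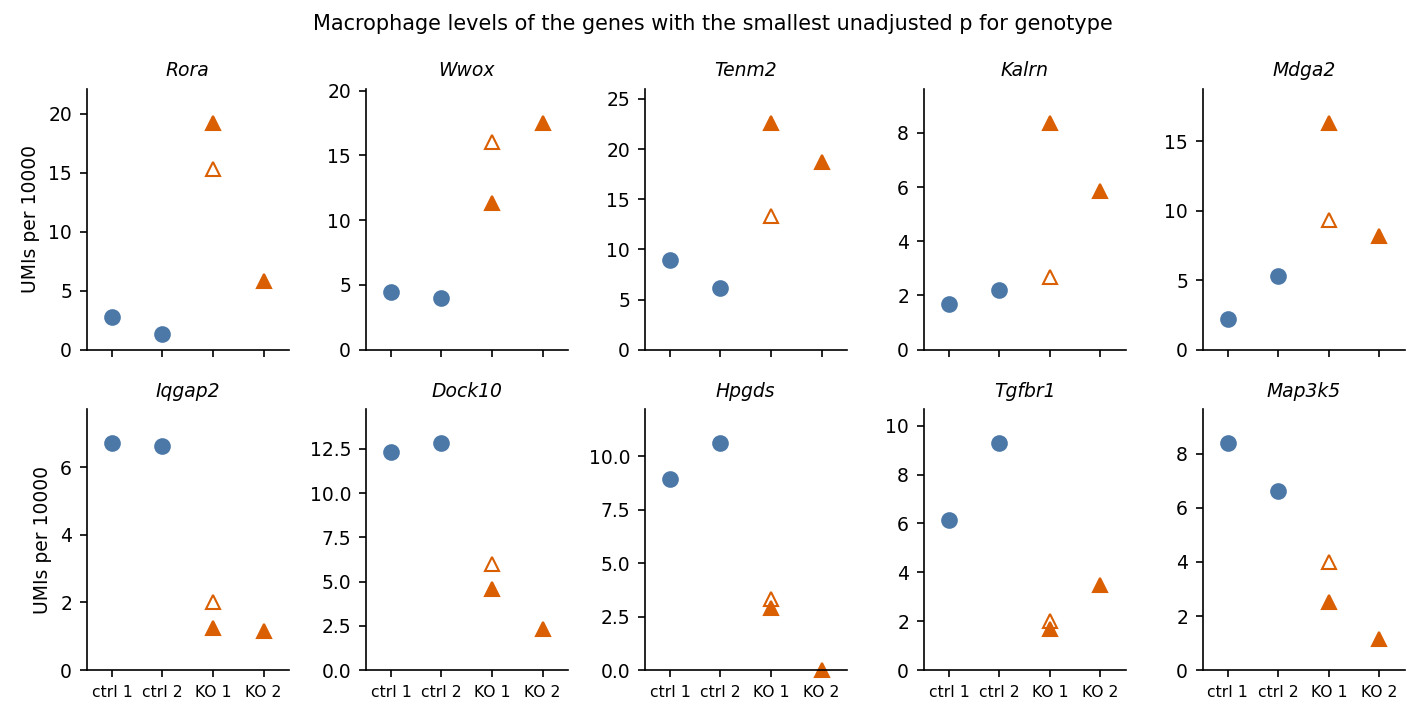
Levels per 10000 UMIs, one point per library, of the genes with the smallest unadjusted p between genotypes, with open points for CrT-KO replicate 1 after removal of its heaviest nucleus. The control and CrT-KO points of Wwox and Hpgds do not overlap, which the choice by smallest p favours. No gene passed the adjusted threshold with all nuclei.

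The count moved with the nuclei and libraries used. Without the heaviest nucleus, 2 of 270 genes were called, both higher in CrT-KO (0.741%). With all marked doublets left out, that nucleus among them, 0 of 236 were called by edgeR, with 13 at an unadjusted p under 0.05. Of the 2 genes called without the heaviest nucleus, Wwox was one (2.01 ± 0.47 (SE), adjusted p = 0.0692), with the level of CrT-KO replicate 1 at 16.0 in place of 11.3. The other was Fbxl7, an F-box protein with too few counts to be tested with all nuclei, with 0, 1, 10 and 8 UMIs (4.63 ± 0.90 (SE), adjusted p = 0.0206). Its counts came from 3 nuclei, 10 UMIs in 1 nucleus of CrT-KO replicate 1 and 8 in 1 nucleus of CrT-KO replicate 2, so 18 of its 19 UMIs came from 2 nuclei.

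Members of the macrophage programme showed no called genotype difference, with values that leave wide room. The 3 macrophage markers tested were Colec12 at 0.63 ± 0.49, Stab1 at −0.25 ± 0.43 and Maf at 0.21 ± 0.42 (log2 CrT-KO over control, SE). Rbpj was at 0.03 ± 0.53 and Apoe at −0.24 ± 0.43. Among the 10 transcription factors tested, Mitf (−0.98 ± 0.52) and Etv6 (−0.80 ± 0.49) were the farthest from 0, and among lipid genes Abca1 (−1.07 ± 0.54) and Abca9 (−1.0 ± 0.49). P2rx7 was at −0.64 ± 0.47, Entpd1 at −1.22 ± 0.54, Mertk at −0.67 ± 0.49 and Csf1r at −0.74 ± 0.49. Ctsc was at 0.71 ± 0.60, Ctsb at 0.18 ± 0.53, Nrp1 at 0.38 ± 0.42, Cp at −0.04 ± 0.59, Zbtb16 at 1.16 ± 0.48 and Fkbp5 at −0.12 ± 0.44. Bank1 was at −0.30 ± 0.46, and the neuron markers farthest from 0 were Syt1 (1.09 ± 0.52) and Rbfox1 (0.40 ± 0.42). The median of all 383 genes was −0.01. All these values keep the heaviest nucleus, 37.3% of the macrophage sum of CrT-KO replicate 1. Without it the sign changed for Apoe (0.07 ± 0.33), Cp (0.18 ± 0.58) and Fkbp5 (0.09 ± 0.33), each within its standard error of 0. The other genes named here that could be tested without it kept their sign, with Maf at 0.49 ± 0.38 and Csf1r at −0.46 ± 0.57.

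The genotype effect was also compared between macrophages and microglia as an interaction in one fit over the 8 sums. It differed for 2 of 7033 genes (0.0284%), Trpm3 and Tshz2, both higher in CrT-KO macrophages. Trpm3, a heat- and steroid-gated cation channel, gave 1, 1, 53 and 1 UMIs, and Tshz2, a zinc finger gene of cortical neurons, gave 2, 1, 56 and 0. In each case a single nucleus of CrT-KO replicate 1 held nearly all of them, 50 of 56 for Trpm3 and 55 of 59 for Tshz2. DESeq2 called 0, with 178 at an unadjusted p under 0.05. Without either control library or without CrT-KO replicate 1 the count was 0, and without CrT-KO replicate 2 it was 20. No member of any gene list was called.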

How the data were processed

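Nuclei from 4 cortices were profiled by single-nucleus RNA-seq with the 10x Chromium 3' chemistry. The authors aligned reads to a pre-mRNA version of GRCm38 (mm10) with Ensembl 99 annotation, in which whole gene bodies count as exons, using Cell Ranger 3.1.0, and deposited the filtered matrices as UMI counts per gene and nucleus, not normalized. Long genes with many introns are therefore well sampled and short ones poorly. The study itself clustered nuclei in Seurat 3.1.4 and ran rank-sum tests over nuclei. Its cell labels were not used here.

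Nuclei were selected by UMI counts alone, with no other filter on nuclei, no clustering and no removal of doublets, which were marked per library with the scrublet method in scanpy 1.11.5. Counts were summed per library and tested with edgeR 4.0.16 (glmQLFit and glmQLFTest, TMM factors, filterByExpr, Benjamini-Hochberg, threshold 0.1 as in the study). The genes of the selection stayed in the fits and were not tested. Single values were compared by 2-sided exact permutation over the 6 assignments of 4 libraries. Shares carry exact binomial intervals, and a count of 0 carries a floor of 3 UMIs, both covering counting error only. Pooled ratios carry intervals of the same kind. Named genes were the 12 largest called differences each way with the same sign in all 4 libraries, the called members of 31 gene lists (up to 4 each way) with defining markers, and for genotype the 5 genes each way with the smallest p. Some genes that this rule names, and members behind the counts, are not reported here. The members and the lists were chosen with earlier results of these data known. Coordinates are from GENCODE vM21 (GRCm38) and promoters from RefSeq. Statistical steps were tested on simulated data, in which the genotype test found most of the larger changes and fewer of the smaller, the comparison with microglia missed most changed genes, the interaction test found none, and the first and second also called some unchanged genes. The simulated sums had a fixed dispersion and no single nucleus that held most UMIs of a gene, so recovery in these data may be lower. A gene that was not called may therefore still differ. Alternatives covered the selection thresholds, DESeq2 1.42.0, normalization, filters, blocks and each library left out.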

Additional observations from a re-analysis of the deposited data

Results flagged for a closer look

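2 genes had a genotype effect that differed between macrophages and microglia, and each rested on 1 nucleus. For Trpm3 the log2 difference of effects was 5.00 (edgeR interaction, adjusted p = 0.00685, SE 1.03). 50 of its 56 macrophage UMIs were in a nucleus of CrT-KO replicate 1 that had 2459 UMIs. That nucleus held 10 UMIs of Mrc1, 26 of macrophage markers, 6 of fibroblast markers, 7 of astrocyte markers and 10 of neuron markers. With nuclei holding vascular or fibroblast markers left out the value was 1.86 (adjusted p = 1). Without CrT-KO replicate 1 it was 1.14.

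For Tshz2 the log2 difference of effects was 4.46 (adjusted p = 0.00685, SE 0.94). 55 of its 59 macrophage UMIs were in the heaviest nucleus, which was marked as a doublet and held 93 UMIs of neuron markers. Without that nucleus the value was −0.53 (adjusted p = 1).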

How the results depend on the processing

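Both shares of macrophage nuclei were lower in CrT-KO in all 13 and 16 alternatives, from −0.0971 to −0.0586 and from −2.05 to −1.15 points with each library left out. Each p stood at the smallest the design allows, so none is a sign of stability. The difference in median depth turned positive without CrT-KO replicate 2 (67.5 UMIs) and with at least 3 UMIs of Mrc1 (27.8), over a range of −188 to 67.5 with each library left out.

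For genotype, 1 alternative, the threshold of 0.05, reused the reported fit and could only give 0. With it included, the count of genes called by genotype was 0 in 11 of 17 alternatives. It was 92 with at least 1 UMI of Mrc1 (75 higher, 17 lower), 2 without the heaviest nucleus, 2 with no filter on low counts and 1 with no TMM factors, and 0 to 60 with each library left out (3 without CrT-KO replicate 1, 60 without CrT-KO replicate 2). A replicate block called 0 of 383 genes, with 17 at an unadjusted p under 0.05. Deviations of samples with the same number correlated at r = 0.127 over 387 genes, and with 2 pairs the samples share only a number. With the neuron condition dropped, Tenm2, Kalrn and Mdga2 reversed to −0.85, −0.05 and −0.19.

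Against microglia, 925 calls became 474 with at least 1 UMI of Mrc1, 428 with the neuron condition dropped, 441 with the stricter gate and 453 with that gate and without the heaviest nucleus. With each library left out they ranged from 490 to 963 (519 without control replicate 1, 490 without control replicate 2). With no TMM factors the split was 462 higher and 348 lower in place of 223 and 702. For the 24 genes with the largest differences from microglia, 410 values under the alternatives that tested them kept their direction and side of the threshold. Another 8 lost the call and 0 reversed. Among these alternatives, the lower threshold named above for genotype reused the reported fit here too. Its values for the 24 genes repeat the reported ones and could only be counted among the 410. These genes were chosen as called, large and of the same sign in all 4 libraries, so reversal was unlikely by choice. Against the stricter set, only 9 of the 12 higher and 5 of the 12 lower genes were tested. Of 153 genes of the naming rule and the lists tested against both sets of microglia, 60 were called against both, 16 against the broader set alone and 16, Mertk among them (−0.59 and −1.32), against the stricter set alone. The sign differed for 26, of which 4 were called in at least 1 comparison (Lhfpl3, Rora, Tenm2 and Trpm3), with Lhfpl3 at −1.34, called, and 0.74, not called.

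Interaction calls, 2 in all, became 67 with at least 1 UMI of Mrc1, 6 with the neuron condition dropped, 6 with no library block, 4 with no TMM factors, 0 with DESeq2 (178 at an unadjusted p under 0.05) and 0 to 20 with each library left out. They were 1 with doublets, with nuclei of vascular or fibroblast markers, or with the heaviest nucleus left out, and 1 with the stricter gate, with or without that nucleus. Tshz2 reversed to −0.74 without doublets, −0.53 without the heaviest nucleus, −1.49 with the stricter gate as well and from −6.79 (without CrT-KO replicate 1) to 5.75 (without CrT-KO replicate 2) with each library left out. The causes of these shifts were not tested. 57 nuclei of about 1000 UMIs limit every value here.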
